A study of Mus musculus with 6 samples.

Results

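The genes described here encode the enzymes that build cholesterol and fatty acids, with the regulators that set their transcription. They were chosen by name, with earlier results of these data known. All 34 have at least 1 probe set with a single gene symbol on the array. They have 79 probe sets in all, out of 18193 genes and 45037 probe sets. Of the 34, 17 are enzymes of sterol synthesis, 11 are enzymes of fatty acid synthesis, 5 are regulators and 1, Stard4, encodes a sterol carrier. Each gene was represented by its probe set with the highest mean over all arrays.

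The arrays hold RNA of bone callus, the repair tissue at a fracture, from 12-week-old mice of a C57BL6J x 129SV mixed background. Every mouse had a tibial osteotomy stabilised with an intramedullary rod and was sampled at day 14. The 3 null samples are Cyp24a1 (-/-), lacking the 24-hydroxylase that inactivates vitamin D hormones, and the 3 control samples are Cyp24a1 (+/-) littermates, so the controls also carry 1 disrupted allele. The sources used here do not give the disrupted part of the gene or the cells that lack it. Nothing in the labels states that each sample is a separate animal, so the p-values measure only the spread between these samples, which may be technical.

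Cholesterol is made from acetyl-CoA through mevalonate, farnesyl diphosphate, squalene and lanosterol. Fatty acids are made from the same acetyl-CoA by carboxylation and chain building, followed by elongation and desaturation. Both branches are transcribed under sterol regulatory element-binding proteins (SREBPs): SCAP carries them out of the endoplasmic reticulum, INSIG proteins hold SCAP back when sterols are plentiful, SREBP-2 acts mainly on sterol genes and SREBP-1c mainly on fatty acid genes. Adipocytes, sebaceous glands and liver are the tissues best known for making fatty acids, and every dividing cell needs sterol for its membranes.

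Values are log2 as deposited, and differences are null minus heterozygous, so that a difference of 1 is a doubling. The array medians ranged from 4.55 to 4.59, and Pearson's r between arrays, taken across probe sets, from 0.970 to 0.991. Cyp24a1 itself was near the lower end of the scale, at 3.65, 3.20 and 3.23 in null callus and 2.71, 2.89 and 3.10 in heterozygous callus on 1 probe set, and with a difference of -0.072 on the other, so it gives no check of the genotype labels. Bone (Col1a1, 13.57 to 14.28), cartilage (Col2a1, 7.04 to 9.76) and skeletal muscle transcripts (Acta1, 14.40 to 14.49) were measured on all 6 arrays, while the cartilage markers Hapln1 and Matn1 averaged 3.19 or less in both groups. Null replicate 1 and heterozygous replicate 3 had few marrow transcripts. For 10 neutrophil markers the mean deviation from each gene's own average was -2.99 and -3.55 on these arrays, against 1.43 to 1.96 on the other 4. Both are set apart below where a result moves with them.

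The promoters of 27 of the 34 genes are in the RefSeq table for GRCm38.p6, as 36 windows of 300 bases. Short motifs were searched on both strands, with overlaps allowed: TCACNCCAC, a form of the sterol regulatory element; CCAAT, bound by NF-Y; GGGCGG, a GC box; and CACGTG, an E-box. CCAAT was found for 14 of the 14 sterol enzymes with a window, for 5 of 8 fatty acid enzymes and for 41.1% of all genes with windows. GGGCGG was found for 13 of the 14 sterol enzymes, for 4 of 8 fatty acid enzymes and for 38.2% of all genes. The sterol element was found for 1 member, Hmgcs1, with its first base at position -137 from the start, and for 1.44% of all genes. CACGTG was found for 6 of 27 members and 8.09% of all genes. These are matches of letters only, and the genes compared were not matched for base composition.

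The 250 bases before the start are shown for Hmgcs1, the member with the sterol element, and for Cyp51, Acly and Elovl6, the genes with the lowest p-values below for which a window is listed. Capitals mark TCACNCCAC and CCAAT on either strand, the latter reading ATTGG on the reverse. Coordinates are on GRCm38.p6.
Hmgcs1, chr13:119690101-119690350, plus strand: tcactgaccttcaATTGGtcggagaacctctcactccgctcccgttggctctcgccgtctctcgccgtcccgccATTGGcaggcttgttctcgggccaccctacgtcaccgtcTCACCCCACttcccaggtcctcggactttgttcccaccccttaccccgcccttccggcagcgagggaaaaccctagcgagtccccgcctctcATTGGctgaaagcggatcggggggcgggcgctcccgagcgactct
Cyp51, chr5:4104698-4104947, minus strand: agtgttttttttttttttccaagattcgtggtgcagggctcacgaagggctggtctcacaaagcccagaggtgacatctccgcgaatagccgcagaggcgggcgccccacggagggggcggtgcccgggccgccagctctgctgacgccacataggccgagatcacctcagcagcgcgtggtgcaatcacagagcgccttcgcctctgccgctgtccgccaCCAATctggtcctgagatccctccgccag
Acly, chr11:100528001-100528250, minus strand: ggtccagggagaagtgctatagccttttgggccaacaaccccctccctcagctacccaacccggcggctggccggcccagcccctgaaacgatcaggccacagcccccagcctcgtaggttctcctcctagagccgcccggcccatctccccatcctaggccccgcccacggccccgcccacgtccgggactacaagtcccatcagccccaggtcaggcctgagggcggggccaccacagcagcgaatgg
Elovl6, chr3:129532136-129532385, plus strand: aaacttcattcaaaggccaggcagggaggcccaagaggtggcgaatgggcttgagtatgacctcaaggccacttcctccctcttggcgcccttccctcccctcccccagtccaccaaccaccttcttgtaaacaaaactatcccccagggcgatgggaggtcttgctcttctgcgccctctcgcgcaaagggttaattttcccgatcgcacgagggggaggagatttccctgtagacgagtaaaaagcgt
The bases shown hold 3 CCAAT matches around the sterol element for Hmgcs1, 1 close to the start for Cyp51 and none for Acly and Elovl6. Downstream of the start, the windows hold 1 more match for Hmgcs1, at position 11, and 1 for Acly, at position 38.

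In null callus 25 of the 34 genes averaged higher than in heterozygous callus and 9 lower. The median difference was 0.19, against -0.0017 over all 18193 genes, of which 49.7% averaged higher. The fatty acid branch had the larger differences: 9 of its 11 enzymes averaged higher, with a median of 0.41, against 13 of 17 sterol enzymes with a median of 0.12. At an adjusted p of 0.05, limma called 0 of the 34 genes (adjusted p = 0.999 for each) and 0% of all probe sets. At an unadjusted p under 0.05 there were 4 members, Acly, Fads1, Cyp51 and Elovl6, all higher in null callus, beside 4.49% of all genes (2.06% higher and 2.43% lower). The groups did not overlap for 7 members, all higher in null callus, beside 4.14% of all genes in that direction and 5.99% in the other. Over all 79 probe sets of the members, 51 differences were positive and 28 negative, with a median of 0.085, and 6 had an unadjusted p under 0.05, 5 of them higher, beside 3.69% of all probe sets. Of the 25 members with several probe sets, 15 had 1 direction on all of them and 10 did not. The 7 members without overlap are Hmgcs1, Cyp51, Msmo1, Insig1, Acly, Elovl6 and Fads1. With 3 arrays a group, the smallest two-sided exact permutation p for a single gene is 0.1.

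**Figure D1:**
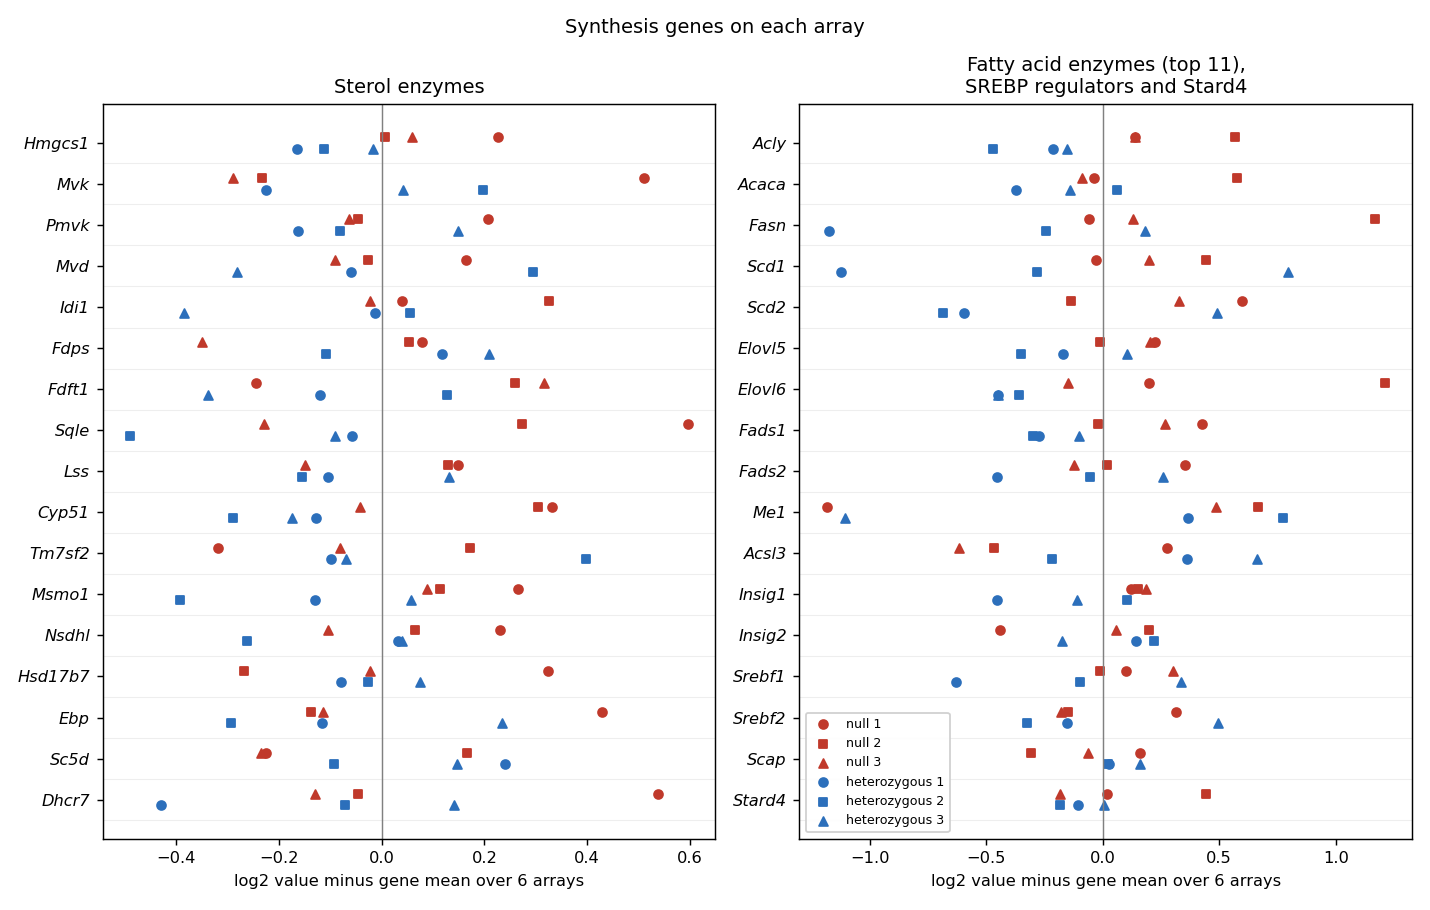
Each gene's log2 value on each of the 6 arrays, minus that gene's mean over the arrays (x axis), for sterol enzymes (left) and for fatty acid enzymes, regulators and Stard4 (right); red is null, blue is heterozygous, and the marker shape gives the replicate. Null replicate 1 (red circles) is the highest array for 11 of the 17 sterol enzymes, and the points of the 2 groups are apart for 7 of the 34 genes.

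**Figure D2:**
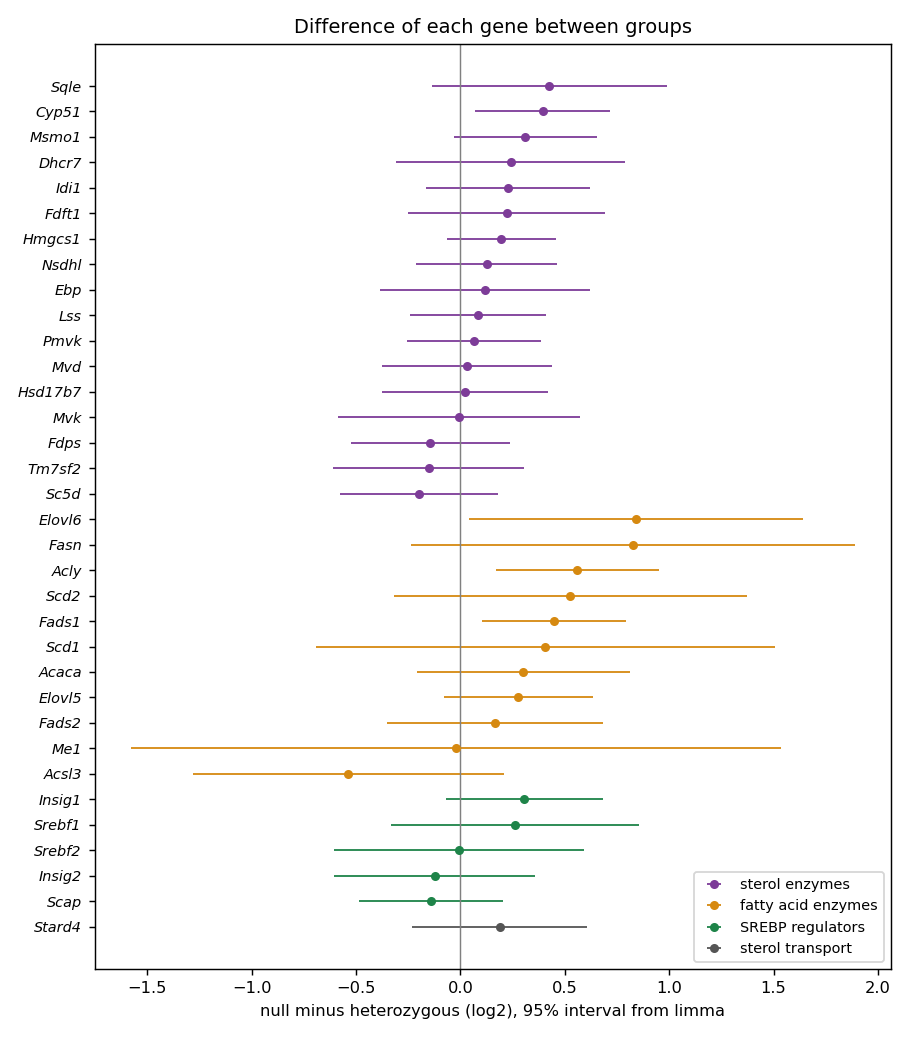
Null minus heterozygous difference (log2, x axis) of each gene with its 95% interval from limma, ordered within each gene class. The intervals of 4 genes, Cyp51, Elovl6, Acly and Fads1, lie wholly above 0 before any adjustment for the number of probe sets.

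The early steps of sterol synthesis showed small differences. The 6 enzymes from Hmgcs1 to Fdps had a median of 0.048, and 4 of them averaged higher in null callus. Hmgcs1, the cytosolic synthase that condenses acetyl-CoA units into HMG-CoA, read 9.10, 8.88 and 8.94 in null callus and 8.71, 8.77 and 8.86 in heterozygous callus. All 3 null values lay above all heterozygous ones, but by 0.024 at their closest, and the difference was 0.20 (SE 0.11). All 5 Hmgcs1 probe sets had the same direction, but the groups overlapped on each of the others, with differences of 0.036 to 0.22. Idi1, which isomerises the activated isoprene unit, differed by 0.23 (SE 0.16), or 0.093 without heterozygous replicate 3. The mevalonate kinase gene Mvk differed by -0.0084, the phosphomevalonate kinase gene Pmvk by 0.065 and the decarboxylase gene Mvd by 0.031. Fdps, which makes farnesyl diphosphate, differed by -0.15 (SE 0.16), or -0.0072 without null replicate 3. The groups of these 5 genes overlapped.

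The 3 enzymes from squalene to lanosterol all averaged higher in null callus. Sqle, the epoxidase that adds oxygen to squalene, read 7.29, 6.97 and 6.46 in null callus and 6.63, 6.20 and 6.60 in heterozygous callus. The difference was 0.43 (SE 0.24), and null replicate 3 lay among the heterozygous values. It was 0.23 without null replicate 1 and 0.65 without null replicate 3. Fdft1, the squalene synthase gene, differed by 0.22 (SE 0.20), or 0.11 without heterozygous replicate 3, and by 0.25, -0.032 and -0.011 on its other probe sets, the last 2 at lower levels. Lss, the lanosterol synthase gene, differed by 0.085 (SE 0.14, and 0.029 without heterozygous replicate 2) on a probe set whose name marks probes shared between transcripts, and by up to 0.51 on its other probe sets.

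Of the 8 enzymes that turn lanosterol into cholesterol, 6 averaged higher in null callus, with a median of 0.12. Cyp51, the lanosterol demethylase gene, read 5.41, 5.38 and 5.03 in null callus and 4.95, 4.78 and 4.90 in heterozygous callus. The groups did not overlap, and the difference was 0.39 (SE 0.13), or 1.31-fold (unadjusted p = 0.0242, limma). Its other probe sets had lower levels and differed by 0.0065 and -0.026. Msmo1, the methylsterol monooxygenase gene, acts downstream of it and read 7.08, 6.93 and 6.91 against 6.69, 6.43 and 6.88. Its groups were apart by 0.031 at their closest, with a difference of 0.31 (SE 0.14, unadjusted p = 0.0683), or 0.19 without heterozygous replicate 2. The other Msmo1 probe set, at a lower level (mean 3.09), differed by -0.011. Dhcr7, the dehydrocholesterol reductase gene, differed by 0.24 (SE 0.23), but by 0.033 without null replicate 1 and 0.087 without heterozygous replicate 1. Nsdhl differed by 0.13 (0.027 without heterozygous replicate 2), the isomerase gene Ebp by 0.12 and Hsd17b7 by 0.021. Sc5d, which makes the substrate of DHCR7, differed by -0.20 (SE 0.16), and Tm7sf2, a sterol reductase gene, by -0.15 (SE 0.19). Stard4, which carries sterol between membranes, differed by 0.19 (SE 0.17), but by 0.013 without null replicate 2.

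The regulators had no common direction. Insig1, itself a target of SREBPs, read 6.13, 6.16 and 6.20 in null callus and 5.55, 6.11 and 5.90 in heterozygous callus. The null values lay above all heterozygous ones, narrowly so for heterozygous replicate 2, and the difference was 0.31 (SE 0.16, unadjusted p = 0.0954), or 0.15 without heterozygous replicate 1. Its paralog Insig2 read 8.12, 8.76 and 8.62 against 8.70, 8.78 and 8.39. These groups overlapped, with a difference of -0.12 (95% interval -0.60 to 0.36) and the same sign on all 3 probe sets. Srebf1, which encodes the SREBP-1 forms, read 8.83, 8.73 and 9.04 against 8.11, 8.64 and 9.07. Its highest and lowest values were both heterozygous, and the difference was 0.26 (95% interval -0.33 to 0.85), or 0.012 without heterozygous replicate 1 and 0.49 without heterozygous replicate 3. Srebf2, which encodes SREBP-2, read 7.85, 7.38 and 7.35 against 7.38, 7.20 and 8.02, a difference of -0.0090 (95% interval -0.61 to 0.59). The 2 marrow-poor arrays were the highest for Srebf2. Scap differed by -0.14 (SE 0.14), or -0.021 without null replicate 2.

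In the fatty acid branch, Acly had the lowest p-value of the 34 genes. It encodes ATP citrate lyase, which supplies cytosolic acetyl-CoA to both branches. Acly read 8.94, 9.37 and 8.94 in null callus and 8.59, 8.33 and 8.65 in heterozygous callus. Every null value lay above every heterozygous one, and the difference was 0.56 (SE 0.16), or 1.47-fold (unadjusted p = 0.0121, adjusted p = 0.999, limma). All 6 Acly probe sets had this direction, but those averaging 2.63, 2.26 and 2.19 lay near the lower end of the scale. The groups overlapped on the probe set averaging 6.32, with a difference of 0.72 (SE 0.43). A second probe set read 7.62, 8.01 and 7.69 against 7.24, 7.29 and 7.37, a difference of 0.48 (SE 0.13). Acly kept an unadjusted p under 0.05 in 19 of 19 other settings, with differences of 0.37 to 0.70 and limma adjusted p-values of 0.462 or more. Fads1 and Elovl6 did so in 12 of 19 settings each and Cyp51 in 11. Acsl3, lower in null callus, had an unadjusted p under 0.05 in 7 of 19. The settings reuse the same 6 arrays, so these counts are not independent support. Across them 2.33% to 10.3% of all probe sets or genes tested reached that p.

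The genes of the next steps of chain building had a wider spread. Acaca, the carboxylase gene that makes malonyl-CoA, differed by 0.30 (SE 0.21), and by 0.089 without null replicate 2. Fasn, the fatty acid synthase gene, read 8.51, 9.74 and 8.70 in null callus and 7.40, 8.33 and 8.75 in heterozygous callus. Heterozygous replicate 3 lay within the null range, and the difference was 0.83 (SE 0.44, unadjusted p = 0.108), or 0.45 without heterozygous replicate 1 and 1.12 without heterozygous replicate 3. Me1, the malic enzyme gene that supplies NADPH, read 7.97, 9.81 and 9.63 against 9.51, 9.92 and 8.04. Its 2 low values were on the marrow-poor arrays, 1 in each group, and the difference was -0.021 (SE 0.65).

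Both elongases averaged higher in null callus. Elovl6, which extends palmitate to stearate, read 5.36, 6.37 and 5.01 in null callus and 4.71, 4.80 and 4.71 in heterozygous callus. The heterozygous values were close together and all below the null ones. The difference was 0.84 (SE 0.33), or 1.79-fold (unadjusted p = 0.0417), and 0.45 without null replicate 2. All 3 probe sets had this direction, but the groups overlapped on those averaging 4.13 and 3.61. Elovl5, which extends polyunsaturated chains, read 8.95, 8.72 and 8.94 against 8.56, 8.38 and 8.84. Its groups overlapped, and the difference was 0.28 (SE 0.15), with 0.33 on its other probe set and 0.17 without heterozygous replicate 2.

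All 4 desaturases averaged higher in null callus, with a median of 0.43. Fads1, the delta-5 desaturase gene, read 8.19, 7.74 and 8.03 in null callus and 7.49, 7.46 and 7.66 in heterozygous callus. The groups were apart, and the difference was 0.45 (SE 0.14), or 1.37-fold (unadjusted p = 0.0185). Its second probe set, at a lower level, differed by -0.024. Fads2, the delta-6 desaturase gene, read 5.96, 5.63 and 5.49 against 5.16, 5.56 and 5.87. Here the groups overlapped, with a difference of 0.17 (95% interval -0.35 to 0.68). The other Fads2 probe sets, at lower levels, differed by -0.23 (SE 0.17) and 0.047 (SE 0.17).

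Scd1 and Scd2, which put the first double bond into stearate, followed each other only in part. Scd1 read 12.15, 12.62 and 12.38 in null callus and 11.05, 11.90 and 12.97 in heterozygous callus. The null values lay inside the heterozygous range, and the difference was 0.41 (95% interval -0.69 to 1.51). Scd2 read 9.79, 9.05 and 9.51 against 8.59, 8.50 and 9.68. Heterozygous replicate 3 lay among the null values, and the difference was 0.53 (95% interval -0.32 to 1.37), or 0.32 without heterozygous replicate 2. At lower levels, the other Scd2 probe sets differed by 0.39 and -0.12, and the other Scd1 probe set by 0.091. Without heterozygous replicate 3 the differences were 0.91 for Scd1 and 0.90 for Scd2 (unadjusted p = 0.0205 and 0.00881, limma, adjusted p = 0.793 for both), and that setting had 6.04% of all probe sets at an unadjusted p under 0.05. Without heterozygous replicate 1 the Scd1 difference was -0.055. Acsl3, which activates fatty acids to their CoA esters, had the most negative difference of the 34. It read 8.01, 7.27 and 7.12 in null callus and 8.09, 7.51 and 8.40 in heterozygous callus, -0.54 (SE 0.31), or -0.34 without heterozygous replicate 3, and all 3 of its probe sets had this sign. On the Acsl3 probe set averaging 5.25 the groups did not overlap. It read 5.24, 5.07 and 4.77 against 5.41, 5.34 and 5.69, a difference of -0.45 (SE 0.16, unadjusted p = 0.0294, adjusted p = 0.999, limma).

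The branches were set side by side on each array as the mean deviation of their genes from each gene's own mean. For the fatty acid enzymes this mean was 0.082, 0.36 and 0.070 in null callus and -0.37, -0.19 and 0.049 in heterozygous callus. The null arrays were above the heterozygous ones, by 0.021 where they came closest. For the sterol enzymes it was 0.19, 0.065 and -0.086 in null callus and -0.088, -0.077 and -0.0079 in heterozygous callus, and these overlapped. Null replicate 1 was the highest array for 11 of the 17 sterol enzymes, and null replicates 1 and 2 were each the highest for 4 of the 11 fatty acid enzymes. Without null replicate 1 the sterol median was 0.032 and the fatty acid median 0.40, and without heterozygous replicate 1 they were 0.087 and 0.26. With each gene as the mean of all its probe sets they were 0.12 and 0.25. The sterol median minus the fatty acid median was -0.29 with all arrays. The sterol mean deviation minus the fatty acid mean deviation, taken on each array, was 0.11, -0.30 and -0.16 in null callus and 0.28, 0.12 and -0.057 in heterozygous callus, a difference of -0.23 between groups that overlapped. No test was made of the branch difference, since the genes are not replicates.

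Marker genes of other cell types moved across the arrays beside these values. Muscle markers averaged higher in null callus for 0 of 9 genes (median -0.061), bone markers for 2 of 7 (-0.15) and cartilage markers for 2 of 7 (-0.20). Osteoclast markers did so for 2 of 6 (-0.19), erythroid for 1 of 5 (-0.39), neutrophil for 8 of 10 (0.36) and Schwann cell markers for 5 of 6 (0.22). In whole tissue, fewer cells of a type and less RNA per cell cannot be told apart. Of 13 adipocyte markers, 11 were measured. 10 of them were highest on heterozygous replicate 3 and 8 lowest on heterozygous replicate 1, the arrays with the highest and lowest Scd1. Their mean level ranged from 8.14 to 8.45 in null and from 7.46 to 9.10 in heterozygous callus, and 8 of 11 averaged higher in null callus (median 0.17, unadjusted p under 0.05 for 0 of 11). Adipoq, the fat cell hormone adiponectin, read 10.18, 10.51 and 9.85 against 9.27, 9.65 and 11.62. With the adipocyte mean as a covariate, chosen after seeing the data, the fatty acid median was 0.30 and the sterol median 0.098. Acly, Fads1 and Cyp51 then had unadjusted p-values under 0.05 (0.0196, 0.0324 and 0.0415, limma), beside 3.18% of all probe sets. Elovl6 was not among them there, with a difference of 0.83 (SE 0.36).

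All 10 macrophage markers averaged higher in null callus (median 0.55), 9 of them highest on null replicate 1 and 9 lowest on heterozygous replicate 2. The sterol enzymes had the same highest array in 11 of 17 cases and the same lowest array in 6. The macrophage mean level ranged from 9.14 to 10.47 in null and from 8.72 to 9.66 in heterozygous callus. With this mean as a covariate the sterol median was 0.022 and the fatty acid median 0.33. There, 8 members had an unadjusted p under 0.05, 6 of them higher in null callus, beside 7.25% of all probe sets. They were Idi1 (0.42), Fdft1 (0.48), Acly (0.63), Acaca (0.55), Elovl6 (1.19) and Me1 (0.95), with Scap (-0.32) and Acsl3 (-0.95) lower. Fads1 (0.27, SE 0.12) and Cyp51 (0.37, SE 0.17) were not among them. Of 12 skin and sebaceous markers, 11 were measured and 9 averaged higher in null callus (median 0.73), with mean levels of 5.65 to 6.46 in null callus and 4.49 to 6.17 in heterozygous callus, lowest on heterozygous replicate 1. With that mean as a covariate the sterol median was 0.036 and the fatty acid median 0.36. Acly was then the only member with an unadjusted p under 0.05, beside 2.98% of all probe sets. The differences there were 0.48 (SE 0.20) for Fads1, 0.37 (SE 0.19) for Cyp51 and 0.59 (SE 0.43) for Elovl6. Of 8 cell cycle markers, 7 were measured, and all averaged higher in null callus (median 0.48), with the lowest mean, -0.99, on heterozygous replicate 3; its part in the result was not tested.

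**Figure D3:**
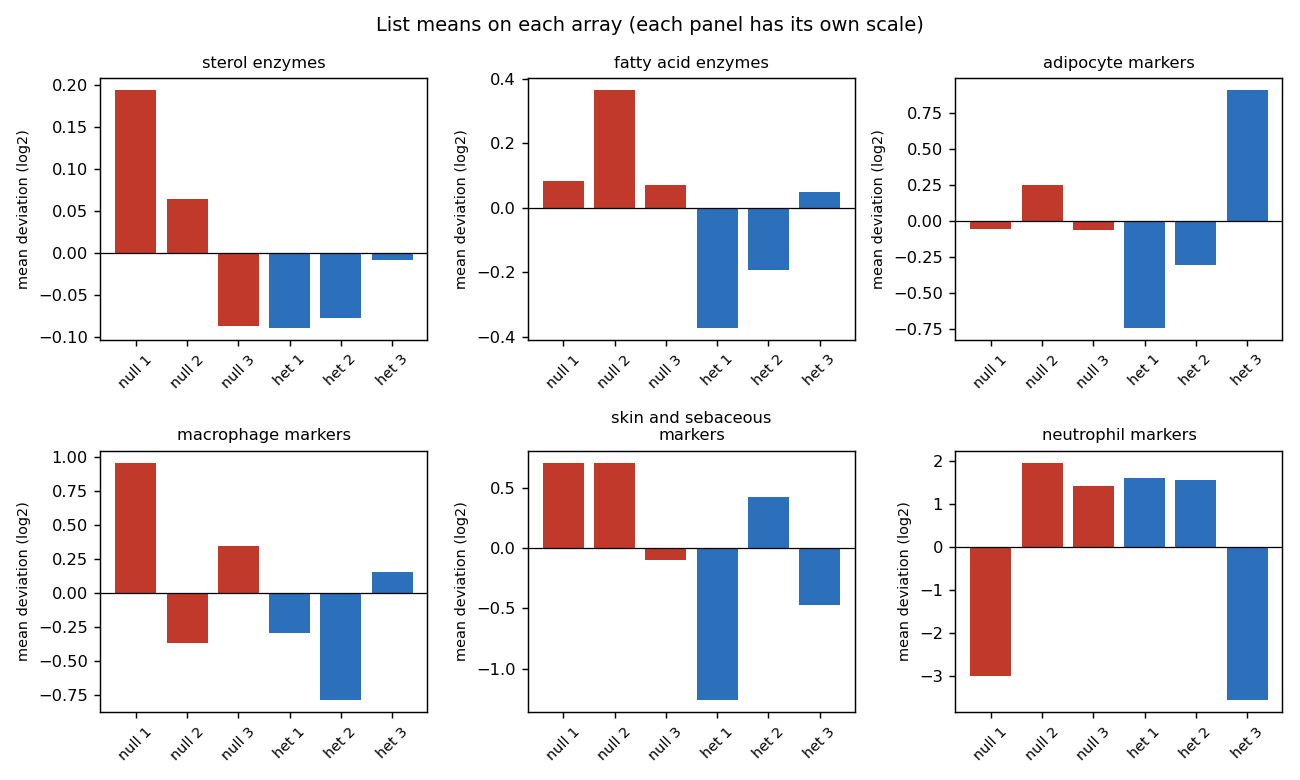
Mean deviation (log2) of each list's genes from their own means on each array, red for null and blue for heterozygous, each panel with its own scale. The fatty acid bars are above 0 on all 3 null arrays and on heterozygous replicate 3 (0.049), and lowest on heterozygous replicate 1 (-0.37). The sterol bars are highest on null replicate 1 (0.19), as are the macrophage bars (0.96).

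Without both marrow-poor arrays, the fatty acid median was 0.41 and the sterol median 0.095, with 25 of 34 genes averaging higher. In those 2 against 2 arrays Acly, Fasn, Scd1, Scd2, Fads1 and Acsl3 had unadjusted p-values under 0.05 (0.00966 to 0.0374, limma, adjusted p = 0.644 for each). Acsl3 alone was lower in null callus, and 7.67% of all probe sets reached that p. The differences there were 1.36 for Fasn, 1.02 for Scd1 and 0.74 for Scd2. Cyp51 and Elovl6 were not among them, with differences of 0.34 (SE 0.17) and 0.94 (SE 0.43) there, against 0.39 and 0.84 with all arrays.

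Genes of neighbouring pathways were taken from lists of names. Of 20 other lipogenic genes sought, 19 were measured, 11 averaged higher in null callus, the median was 0.023 and 0 had an unadjusted p under 0.05. Those with the lowest p-values were the elongase gene Elovl7 (0.26, SE 0.15) and the reductase gene Tecr (-0.41, SE 0.26). Of 6 further sterol synthesis genes, 4 were measured, 2 averaged higher in null callus and the median was -0.034. Among them Ggps1, which diverts farnesyl diphosphate to geranylgeranyl diphosphate, read 6.17, 6.46 and 6.40 in null callus and 6.68, 6.75 and 6.65 in heterozygous callus. These groups were apart, with a difference of -0.35 (SE 0.11, unadjusted p = 0.0201, adjusted p = 0.999, limma).

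Of 11 genes of the LXR pathway, which senses oxysterols and drives cholesterol efflux, 9 were measured and 7 averaged higher, with a median of 0.072. Nr1h3, the gene of LXR alpha itself, read 4.73, 5.44 and 5.33 in null callus and 6.02, 5.80 and 5.60 in heterozygous callus, a difference of -0.64 (SE 0.22, unadjusted p = 0.0238) without overlap. Apoe, the lipoprotein gene, differed by 0.71 (SE 0.45). Of 14 fatty acid oxidation genes, 12 were measured and 3 averaged higher, with a median of -0.14. Cpt1a, which admits fatty acids to mitochondria, read 8.32, 8.01 and 8.11 in null callus and 7.74, 7.16 and 7.76 in heterozygous callus, 0.60 higher (SE 0.19, unadjusted p = 0.0193) without overlap. Ppara, the receptor that drives oxidation genes, differed by -0.56 (SE 0.24). None of these lists had a member past limma's adjusted threshold.

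**Figure D4:**
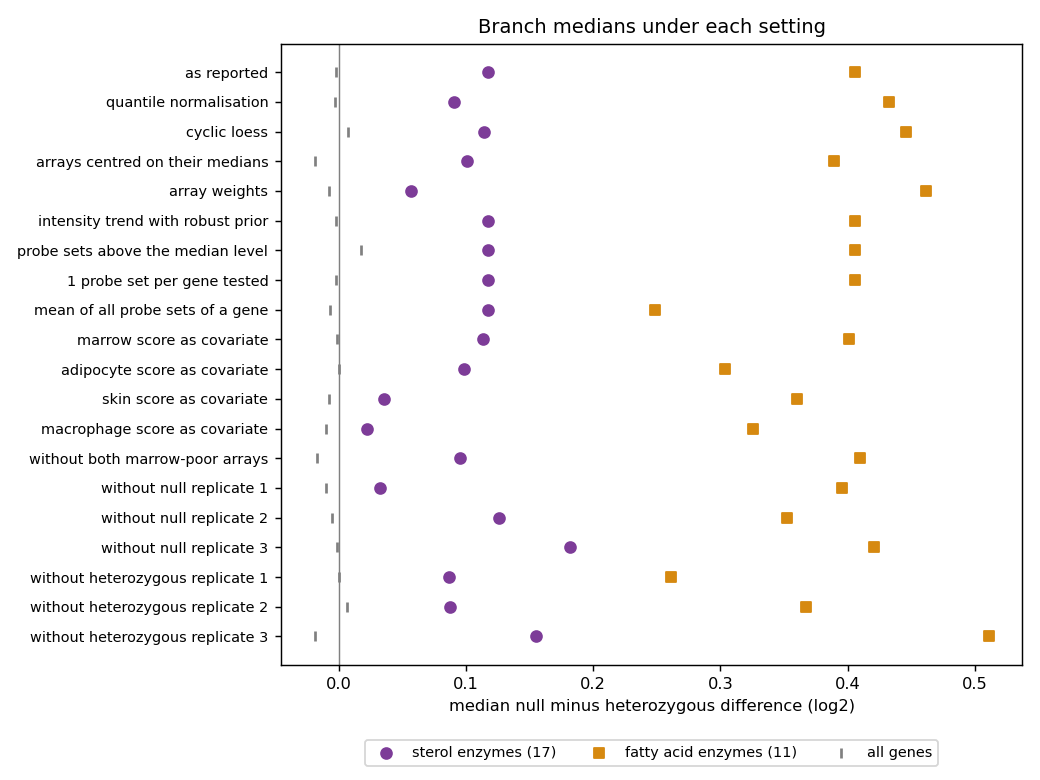
Median null minus heterozygous difference (log2, x axis) of the 17 sterol enzymes (circles), the 11 fatty acid enzymes (squares) and all genes (ticks) as reported and under 19 other settings (rows). The fatty acid median lies between 0.25 and 0.51 and the sterol median between 0.022 and 0.18, in each row above the median of all genes.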

How the data were processed

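Per the labels' protocols, RNA purified with Trizol and a QIAGEN column was biotin-labelled and read on the GeneChip Mouse 430_2 array of Affymetrix. One log2 value per probe set and array was deposited by the authors; that the scale is log2 was inferred from the range of the values. The sources used here do not name the software, background correction or normalisation. Array distributions are almost identical, so a change common to all genes would not be seen, and low values lie near a floor that compresses differences. Arrays give no depth, and their number limits the precision.

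Of 45101 probe sets, 64 controls were left out. Symbols came from the platform annotation (34945 probe sets with 1 symbol, 932 with several, 9160 with none listed here), and all 34 members matched RefSeq genes (GRCm38.p6) by gene identifier with 0 symbols changed. Probe set names of Mvd, Lss and Acsl3 (_s_at) and of Hsd17b7 and Elovl5 (_x_at) mark probes that can read other transcripts. Each probe set was tested with limma 3.58.1 in R 4.3.3 (lmFit, eBayes, two-sided, no filter, no covariate), with Benjamini-Hochberg adjustment over 45037 probe sets; residual degrees of freedom were 4 and prior degrees of freedom 2.50. The procedure was tested on simulated data. Lists are described by counts and medians without a test.

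Values on each array are given for the 8 members with the lowest unadjusted p and for paralog pairs, and in other lists the 2 genes with the lowest p may be named; Hmgcs1, Sqle, Me1, Acsl3, Cyp24a1, Adipoq and the tissue markers were added after their values were seen. The members and lists were chosen with earlier results of these data known. Alternatives were other normalisations, array weights, an intensity trend, a level filter, other choices of probe set, a threshold of 0.1, marker means as covariates, and leaving out arrays.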

Additional observations from a re-analysis of the deposited data

How the results depend on the processing

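No member passed limma's adjusted threshold of 0.05 under any of the 19 other settings, or at 0.1, and the lowest adjusted p among them was 0.462, with array weights. That count of 0 goes with 4 members at an unadjusted p under 0.05, and 1 to 9 across the settings. The share of all probe sets at that p, 3.69% as reported, moved too and is given in brackets. That share covers all probe sets, while each member has 1, its highest. With 1 probe set per gene the share as reported was 4.49%. All 34 members lay above the median level of all probe sets, as did 11483 of 18193 genes, so the shares are not a matched background. There were 9 members with array weights (10.3%), 8 with the macrophage mean as a covariate (7.25%) and 7 with the marrow mean (7.69%). Leaving out heterozygous replicate 3 gave 7 (6.04%), leaving out heterozygous replicate 1 gave 2 (2.36%), and the skin mean as a covariate gave 1 (2.98%). The count of members averaging higher was 22 to 28, the median of all members 0.093 to 0.24, that of sterol enzymes 0.022 to 0.18 and that of fatty acid enzymes 0.25 to 0.51. The sterol minus fatty acid difference was -0.40 to -0.13. The sterol median was 0.032 without null replicate 1 and 0.18 without null replicate 3. The median of all members was 0.12, and that of fatty acid enzymes 0.26, without heterozygous replicate 1. Leaving out an array leaves 2 in its group, and all arrays then share 1 estimate of the spread.

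Of the 34 genes, 23 kept their sign in all 19 settings and 11, none of them past the adjusted threshold, did not. The cause was not tested. Leaving out each array gave differences of -0.067 to 0.26 for Ebp, -0.019 to 0.34 for Fads2, -0.14 to 0.16 for Hsd17b7, -0.25 to 0.066 for Insig2, -0.58 to 0.56 for Me1, -0.10 to 0.19 for Mvd, -0.27 to 0.13 for Mvk, -0.022 to 0.16 for Pmvk, -0.055 to 0.91 for Scd1, -0.17 to 0.24 for Srebf2 and -0.28 to 0.0086 for Tm7sf2. Without both marrow-poor arrays Hsd17b7 was at -0.093, Me1 at 0.0065, Mvd at -0.18 and Srebf2 at 0.075. With the macrophage mean as a covariate Ebp was at -0.17, Hsd17b7 at -0.18, Insig2 at 0.16, Me1 at 0.95, Pmvk at -0.061 and Tm7sf2 at 0.11. With the skin mean Fads2 was at -0.063, Hsd17b7 at -0.0099, Mvd at -0.16 and Srebf2 at 0.0051, and with the adipocyte mean Me1 was at 0.058. Array weights gave 0.066 for Me1 and -0.018 for Mvd, quantile normalisation gave -0.013 for Hsd17b7, and the mean of all probe sets gave -0.0073 for Fads2 and -0.038 for Hsd17b7. The adipocyte, skin and macrophage covariates were chosen after seeing the data. No paired analysis was possible because the labels carry no replicate number shared by the groups.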
